A study of Mus musculus with 4 samples.

Results

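XLOC_008068 is a locus on mouse chromosome 13, at chr13:32792694-32872582 on the minus strand of mm9, that the authors assembled and that carries no UCSC gene identifier. It was chosen as 1 of the 35299 loci of the count table because it had the highest read count among the 1280 spliced loci without any UCSC identifier, so its level and its exon number are given as a description, with no test. Its splice structure, compared with GENCODE M21 (an annotation of the later build GRCm38), is that of Mylk4, myosin light chain kinase family member 4.

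Only 1 group was profiled, Sham, with 4 biological replicates. Hearts of 12-week-old C57BL/6J mice were sampled 2 weeks after sham surgery, at the site where an infarct would have its border. The free text of replicate 4 speaks of an infarct border without the word sham, whereas its title and treatment read sham. There is no second group, so no comparison of conditions was possible, and values are compared between libraries and between loci. The table names its libraries 3RL, 7LR, 8R and 12RL, which could not be tied to replicate numbers. Poly(A)-selected RNA was sequenced as paired reads of 100 bases. Normalised read counts are the reads per locus divided by 1 size factor per library.

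Myosin light chain kinases are serine/threonine kinases that add phosphate to the regulatory light chain of myosin, and calcium-bound calmodulin activates the classical members of the family. Phosphorylation of that light chain tunes the force and speed with which cross-bridges form in cardiac muscle. Mylk encodes the smooth muscle and nonmuscle kinases, Mylk2 the skeletal muscle kinase and Mylk3 the cardiac kinase, while Mylk4 is a further relative that is less studied. Myosin phosphatase, whose targeting subunits include the products of Ppp1r12a and Ppp1r12b, removes the phosphate again.

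The locus had 1 transcript model, with 14 exons and 13 introns over 79889 bases of genome, and a spliced length of 10685 bases. No other locus overlapped its span on either strand. Positions on mm9 and GRCm38 cannot be set side by side, so lengths were compared instead. All 13 introns of the model equalled the length of an intron of Mylk4 in GENCODE. All 12 runs of an intron, the exon after it and the next intron were also found in Mylk4, in the same order. The match was put together from more than 1 of the 4 annotated transcripts. The 12-exon transcript, coding and the one that reaches the end of the gene, shared 9 of its 11 introns with the model. The 9-exon transcript, which is annotated as coding with its end not found, shared all 8 of its introns, and a transcript of 3 exons annotated as a retained intron shared both of its 2. The remaining one, a noncoding processed transcript of 3 exons, shared 0 of 2.

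**Figure D1:**
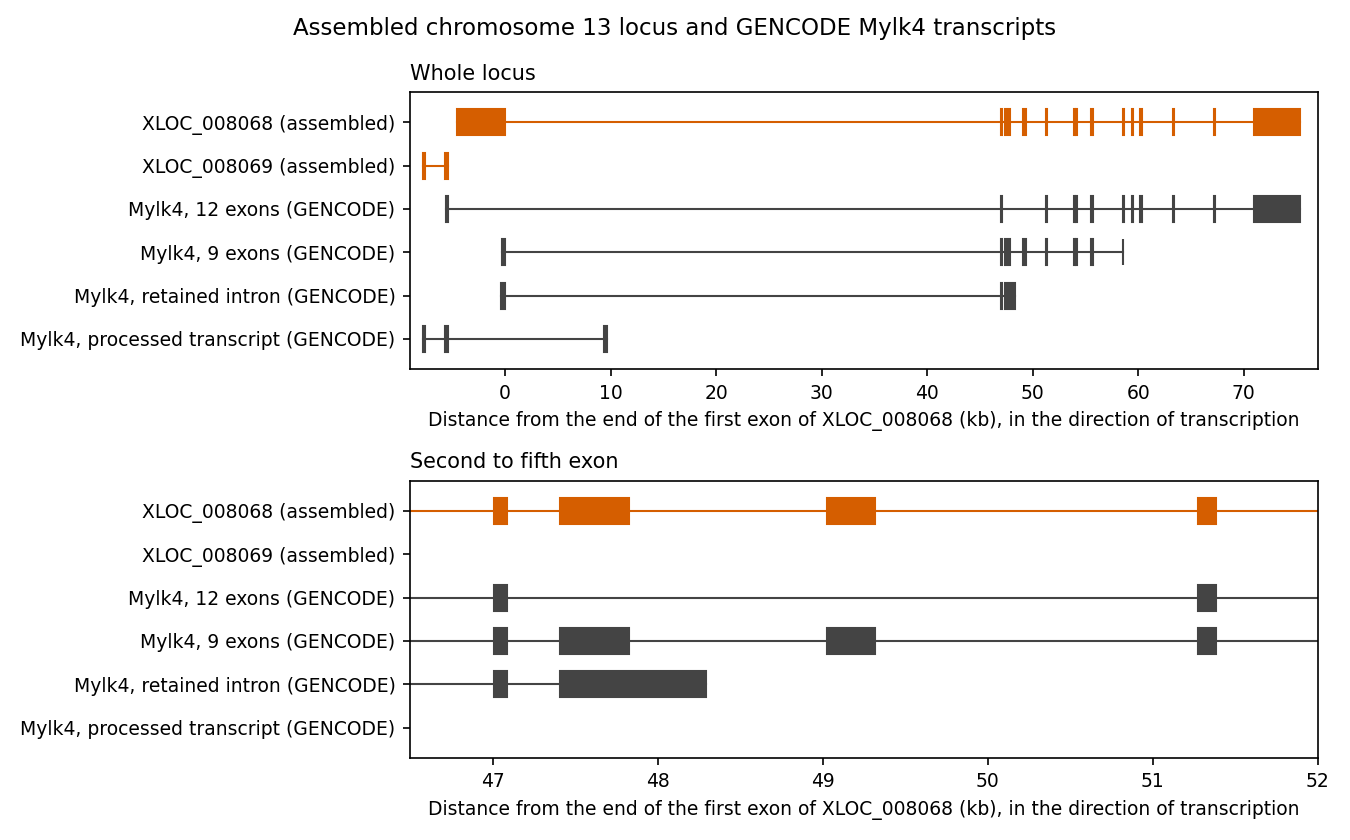
Exons (boxes) and introns (lines) of the assembled loci XLOC_008068 and XLOC_008069 and of the 4 GENCODE Mylk4 transcripts, against the distance in kb from the end of the first exon of XLOC_008068 in the direction of transcription; the lower panel enlarges exons 2 to 5. The assembled model holds the same inner exons as the 12-exon transcript plus a pair of exons of 421 and 290 bases that the 9-exon transcript also has, and its first exon of 4553 bases lies inside the first intron of the 12-exon transcript.

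The assembled model differed from the 12-exon transcript in an inner pair of exons. The exons at chr13:32820204-32820624 and chr13:32818712-32819001 on mm9, of 421 and 290 bases, are present in the model and in the 9-exon transcript and absent from the 12-exon transcript. In their place the 12-exon transcript has a single intron of 4191 bases, which is also the sum of the 2 exons and the 3 introns around them in the model. Together they hold 711 bases, or 237 codons, so the reading frame is the same with and without them. When the coding part of the 9-exon transcript was joined to the downstream exons of the 12-exon transcript, in the exon order of the model, the frame ran for 618 codons and ended on the stop codon of the 12-exon transcript, which itself codes for 387 codons. The pair makes up 38.3% of that joined frame. The frame was read from GENCODE transcripts, and no reads across single splice junctions were analysed here, so how often heart RNA includes the pair was not measured.

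The splice junctions of this stretch are shown because they are where the assembled model and the 12-exon transcript part. They are GENCODE M21 transcript sequences on GRCm38, minus strand, with 60 bases on either side of each junction, read 5′ to 3′ with introns removed. Capitals mark bases of the exons of 421 and 290 bases, and lower case those of the exon of 79 bases before and the exon of 106 bases after them. The junctions lie within chr13:32724825-32729135.
9-exon transcript, exon 2 to exon 3: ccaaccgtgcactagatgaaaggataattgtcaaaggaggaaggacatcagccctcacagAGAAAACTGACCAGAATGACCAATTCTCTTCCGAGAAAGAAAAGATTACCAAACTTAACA
9-exon transcript, exon 3 to exon 4: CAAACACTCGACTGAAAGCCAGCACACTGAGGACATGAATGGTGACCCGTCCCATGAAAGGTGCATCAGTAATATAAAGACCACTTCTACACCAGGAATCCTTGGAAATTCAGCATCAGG
9-exon transcript, exon 4 to exon 5: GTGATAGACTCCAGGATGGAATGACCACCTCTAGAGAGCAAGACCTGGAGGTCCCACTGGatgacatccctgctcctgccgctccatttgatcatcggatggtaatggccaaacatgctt
12-exon transcript, exon 2 to exon 3: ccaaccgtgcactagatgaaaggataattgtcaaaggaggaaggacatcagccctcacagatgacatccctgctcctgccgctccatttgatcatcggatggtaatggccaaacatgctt
The last sequence joins the lower-case start of the first to the lower-case end of the one before it, with the capitals left out.
Of 6514 distinct runs of 100 bases in the 12-exon transcript and the 9-exon transcript, the read length used here, 0 occurred in a GENCODE transcript of another gene on either strand. This search finds exact runs only, so copies that differ by a few bases were not looked for. It also leaves out the 4300 bases of the first exon of the model that lie before the 9-exon transcript. The sequence of the mm9 genome was not used here.

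The ends of the model made up most of its length. The first exon, at chr13:32868030-32872582, spans 4553 bases or 42.6% of the spliced length, and the last, at chr13:32792694-32797084, spans 4391 bases or 41.1%. The 12 inner exons, from 67 to 421 bases long, add 1741 bases or 16.3%. The last exon was 9 bases longer than that of the 12-exon transcript, which has 4382. The first exon ends at the same splice site as that of the 9-exon transcript, of 253 bases, and that of the retained-intron transcript, of 389 bases. It began 4300 bases before the start of the 9-exon transcript and 4164 bases before that of the retained-intron transcript. GENCODE marks both of these starts as supported by CAGE, an assay of RNA 5′ ends. The first intron of the model has 47006 bases, against 52403 in the 12-exon transcript, which starts from another first exon, of 159 bases. Measured from the shared splice site, the 5′ end of the model stopped 844 bases short of that exon.

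A small assembled locus on the same strand, XLOC_008069 at chr13:32873435-32875840, lay 852 bases upstream of the 5′ end of XLOC_008068. Its 2 exons, of 263 and 193 bases, are joined by an intron of 1950 bases, a length that on this chromosome and strand GENCODE lists in 1 gene, Mylk4, in its processed transcript. Measured from the shared splice site, with upstream negative, the 263-base exon of XLOC_008069 runs from -5667 to -5405. It overlaps the first exon of the 12-exon transcript, from -5555 to -5397. XLOC_008069 held 0 reads in 3RL and 1 read each in 7LR, 8R and 12RL. Over the 4 libraries XLOC_008068 held 218061 reads on 10685 bases, or 20408 reads per kb, against 3 reads on 456 bases, or 6.58 reads per kb, at XLOC_008069. Reads that touch both loci may have been left uncounted, because the counting mode is not given in the sources used here. A level near 0 at XLOC_008069 thus does not show that the upstream exons are unused in these hearts.

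The RefSeq promoter of Mylk4 belongs to this upstream start, and its sequence is shown because the exons next to it held almost no reads. Measured back from the shared splice site, the 5′ end of XLOC_008068 lies at 4552 bases, that of XLOC_008069 at 7810 bases and the RefSeq start at 7803 bases. The sequence runs from 250 bases before to 50 bases after that start on GRCm38.p6, chr13:32783915-32784214, minus strand, with the letters of a GC box in capitals.
Mylk4 promoter (RefSeq): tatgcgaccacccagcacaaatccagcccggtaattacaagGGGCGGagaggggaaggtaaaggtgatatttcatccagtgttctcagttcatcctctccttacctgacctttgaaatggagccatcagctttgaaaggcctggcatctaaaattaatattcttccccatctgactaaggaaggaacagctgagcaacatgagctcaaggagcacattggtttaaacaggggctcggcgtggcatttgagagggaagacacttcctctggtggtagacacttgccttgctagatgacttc
The letters GGGCGG, the GC box, were found 1 time, 209 bases before the start, and 35.7% of 32851 RefSeq promoters of the same length hold them on either strand. The TATA box letters TATAAA were not in this window on either strand, and 13.6% of the promoters hold them. A match of letters is no evidence of a bound site. The promoter table lists no other start of Mylk4, so no sequence is shown for the 5′ end of the assembled model.

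Among loci without a UCSC identifier the locus had more exons than most. Of the 1280 spliced ones, 8 had 14 or more exons, this locus included, and the median was 2 exons. The median longest spliced length was 2334.5 bases, and 68 had a longer model than 10685 bases. For the 614 with 3 or more exons, the best-matching model of each was compared with GENCODE. In 127 (20.7%) it had every run of intron, exon and intron in a single gene on the same chromosome and strand. Models with few exons have few such runs, and only 8 of the best-matching models had 12 or more. XLOC_008068 was among the 127.

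XLOC_008068 was read deeply in every heart. Its normalised read counts were 53495 (3RL), 76226 (7LR), 57978 (8R) and 87209 (12RL), a mean of 68727 ± 15763 (SD, n = 4). 12RL and 7LR were the high libraries and 3RL and 8R the low ones, with a gap between the pairs. The recovered reads behind these values were 44815, 66935, 50999 and 55312, in the same order. Their shares of the reads recovered over all loci of a library were 0.0319% (3RL), 0.0470% (7LR), 0.0317% (8R) and 0.0511% (12RL). The recovered reads summed to 108345923 (12RL) to 160670654 (8R), and reads assigned to no locus are not in these sums. The locus stood at rank 301 of all loci (3RL), 191 (7LR), 299 (8R) and 170 (12RL), and it was the first of the spliced loci without a UCSC identifier in each.

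Read counts grow with length, so levels of different loci are given per kb of exon. XLOC_008068 had 5007 normalised counts per kb (3RL), 7134 (7LR), 5426 (8R) and 8162 (12RL), with a mean of 6432 ± 1475 (SD, n = 4). That mean was above the value of 96.4% of loci with a mean count of 10 or more, and the share ran from 95.2% to 97.2% within single libraries. With the 5571 bases of the 12-exon transcript in place of the 10685 assembled bases, the level was 12337 ± 2829 per kb and above 98.1% of those loci. That value is an upper limit for a transcript of this length, because the reads of the exons left out of it stay in the count. The value per kb therefore depends on how much of the long first exon belongs to the transcript, which was not tested.

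XLOC_008068 ranked below Mylk3 and above Mylk and Mylk2 in all 4 hearts. Loci were given symbols where the whole chain of intron and inner exon lengths equalled that of a GENCODE transcript on the same chromosome and strand. In this way all 9 other genes of a list of kinases, light chains and phosphatase subunits found a locus. XLOC_008068, at 5007 to 8162 normalised counts per kb, came below Mylk3, the cardiac kinase, which averaged 16871 ± 1163, from 15321 to 18032. Below the locus were Mylk, the smooth muscle kinase, with 517 ± 31.4, from 476 to 543, and Mylk2, the skeletal muscle kinase, the lowest with 6.22 ± 1.75, from 4.84 to 8.55 (SD, n = 4 each). The 4 ranges did not overlap.

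Within a library, XLOC_008068 reached 0.327 of the level per kb of Mylk3 (3RL), 0.410 (7LR), 0.324 (8R) and 0.453 (12RL), a mean ratio of 0.378 ± 0.0634 (SD, n = 4). With the length of the 12-exon transcript, again an upper limit, the mean ratio was 0.726, between 0.622 and 0.868. The highest library of the locus, at 15654 counts per kb on that length, then lay above the lowest of Mylk3, at 15321, so at that limit the ranges met, while the locus stayed below Mylk3 within every library. Over Mylk, the ratio was 12.4 ± 2.27, from 9.83 in 3RL to 15.1 in 12RL, and with the length of the 12-exon transcript it was at most 23.7 on average, between 18.8 and 29.0. The level of Mylk2 rests on normalised counts of 14.2 to 25.1 per library, so a ratio to it is not given.

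**Figure D2:**
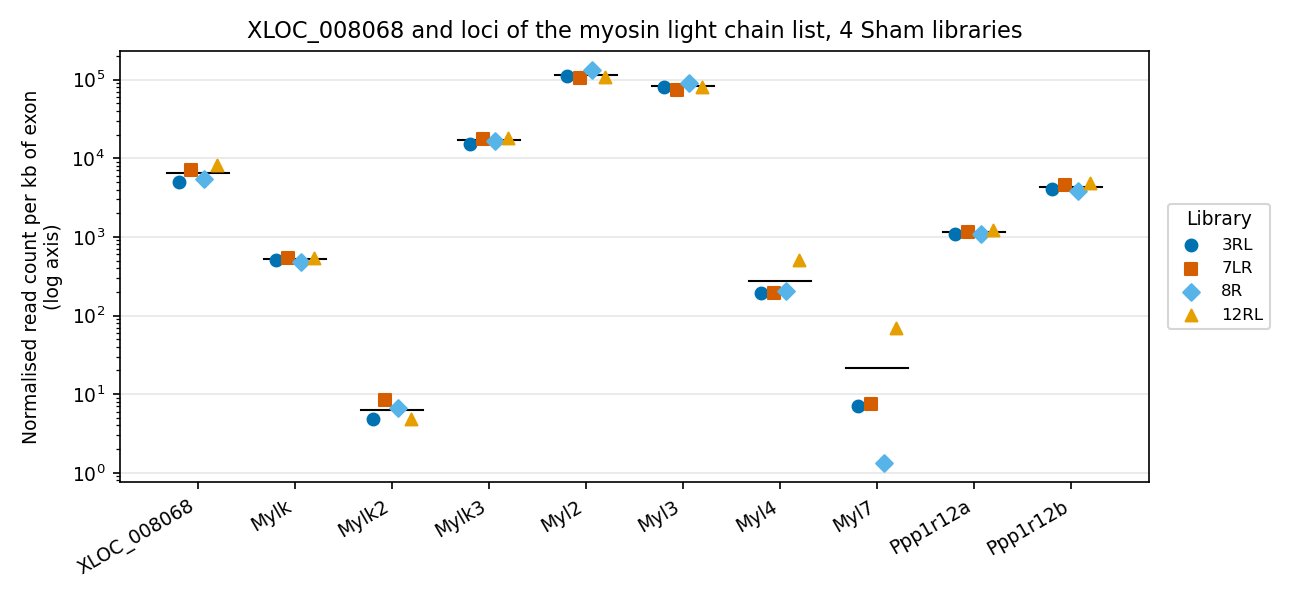
Normalised read count per kb of exon on a log axis for XLOC_008068 and the 9 loci of the myosin light chain list; each point is 1 library, each horizontal line the mean of 4. XLOC_008068, between 5007 and 8162, lies below Mylk3 and above Mylk and Mylk2 in every library.

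The myosin phosphatase subunit Ppp1r12b, which is found in striated muscle, was the nearest of the list below the locus. It had 4307 ± 465 normalised counts per kb, and its highest library, with 4797, lay under every library of XLOC_008068. This order rests on exon lengths of 16019 bases for Ppp1r12b and 10685 for XLOC_008068. Before division by length, Ppp1r12b had the higher count in 3RL (64884 against 53495) and 8R (60751 against 57978), and the lower in 7LR and 12RL. Ppp1r12a, the more widely expressed subunit, had 1143 ± 74.8. The ventricular light chains were far above both, with 113440 ± 11966 for Myl2, the regulatory chain on which cardiac kinases act, and 81824 ± 7465 for Myl3, the essential chain. The exon length of a locus is the union over all its models (8641 bases for Myl2), so levels per kb of genes with long minor models are understated.

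The locus varied more between hearts than most loci as abundant. Its CV over the 4 libraries was 22.9%, and the highest library held 1.63 times the count of the lowest. Counting error at the mean of 54515 reads gives a CV of 0.428%. Among the 250 loci nearest in mean, with means of 43429 to 107539, the median CV was 9.27%, the 90th percentile 17.4%, and 14 exceeded that of XLOC_008068. Over all 14424 loci with a mean of 50 or more, 95.1% had a smaller CV relative to the running median at their level. edgeR's tagwise dispersion gave the locus a biological CV of 17.9%, against 11.4% for the trend at its level. The labels do not say how the 4 hearts differ, so no source of the spread was tested, and fewer cardiomyocytes or less RNA per cell could not be told apart in bulk tissue.

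**Figure D3:**
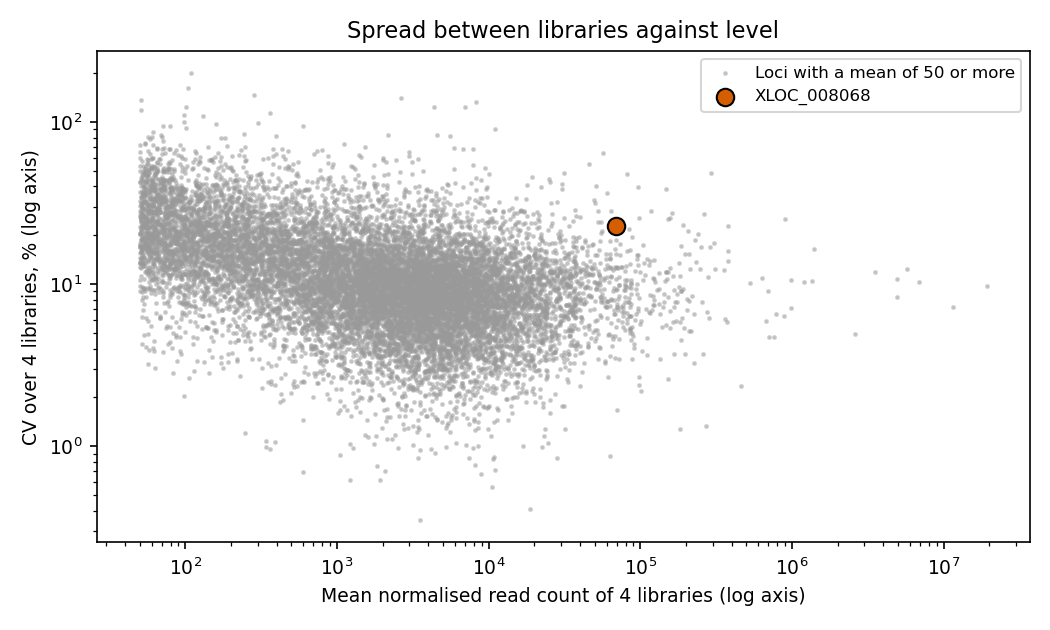
CV over the 4 libraries in percent against the mean normalised read count, both on log axes, for the 14424 loci with a mean of 50 or more (grey) and XLOC_008068 (orange). The locus, at a mean of 68727 and a CV of 22.9%, lies near the upper edge of the loci at its level.

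No single library stood apart from the other 3. On the log2 scale, the deviations of XLOC_008068 from its mean over the libraries were -0.33 (3RL), 0.18 (7LR), -0.22 (8R) and 0.37 (12RL). Dixon's ratio is the gap of the farthest library to its neighbour over the whole range, taken on the normalised counts and not on log2 values. It was 0.326, below its 95% critical value for 4 libraries. Among the 14424 loci, 4.6% had 1 library beyond that value in either direction, 3.15% upward and 1.45% downward. In the myosin light chain list, 1 of 7 loci had such a library, Myl4, upward. Without the highest library, 12RL, the CV of XLOC_008068 was 19.2%, and without the lowest, 3RL, it was 20.0%.

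Long transcripts as a class leaned the same way in these libraries, though by less. The 500 loci nearest in spliced length, from 9908 to 11530 bases, had median deviations of -0.06 (3RL), 0.05 (7LR), -0.06 (8R) and 0.06 (12RL). Taking these medians off left XLOC_008068 at -0.28 (3RL), 0.12 (7LR), -0.15 (8R) and 0.31 (12RL). For the 500 loci nearest to the length of the 12-exon transcript, from 5391 to 5757 bases, the medians were within 0.01 of 0 in each library. In 12RL the locus lay above 96.2% of the loci of assembled length and above 97.6% of those of the length of the 12-exon transcript, and in 3RL it lay above 5.6% and 5.4% of them. The part of RNA recovery or library preparation in these deviations was not tested.

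**Figure D4:**
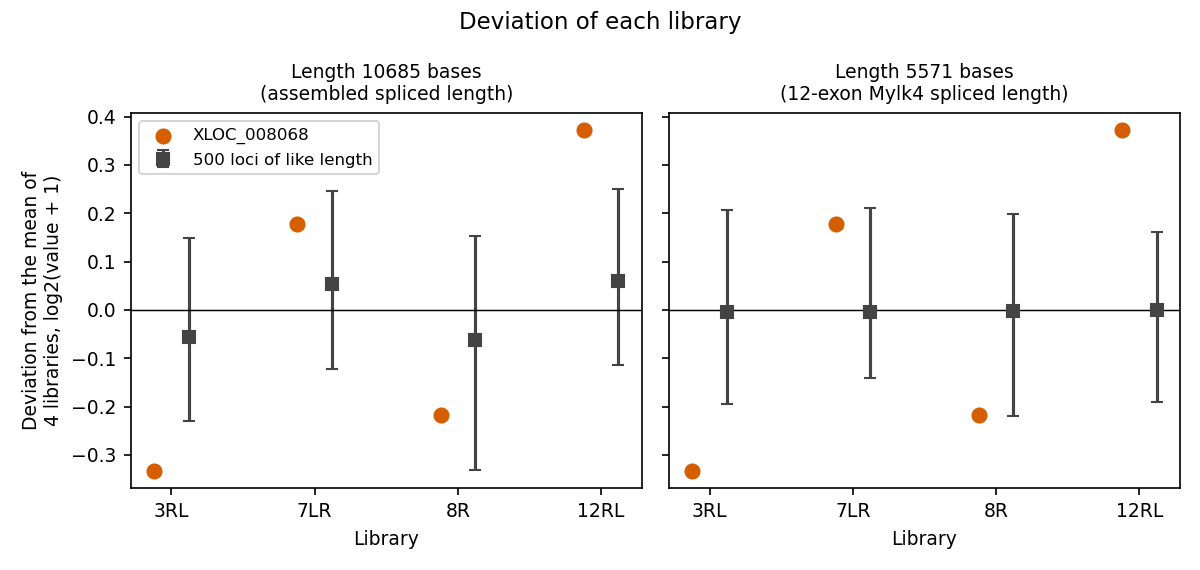
Library deviations from the average over all 4 on the log2(value + 1) scale, for XLOC_008068 (orange points) and for the 500 loci nearest in spliced length (grey squares, medians, with bars from the 10th to the 90th percentile), for the assembled length on the left and the length of the 12-exon transcript on the right. The locus lies below the bar in 3RL and above it in 12RL on both sides.

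The direction of the deviations was shared by many other loci. At a mean of 50 or more there were 14423 of them, and 14.6% were likewise above their mean in 7LR and 12RL and below it in 3RL and 8R. The share was 36.0% among 2239 loci with a spliced length over 8 kb and 7.12% among 562 loci under 1 kb. In the myosin light chain list, 4 of the 7 loci with such a mean had these signs, namely Mylk, Mylk3, Ppp1r12a and Ppp1r12b, each with smaller deviations than XLOC_008068. Ppp1r12b had 64884 normalised counts (3RL), 73498 (7LR), 60751 (8R) and 76836 (12RL). Mylk3 had 107981, 122670, 117870 and 127091 in the same order. The highest library held 1.63 times the lowest for XLOC_008068, against 1.26 times for Ppp1r12b and 1.18 times for Mylk3.

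Markers of several cell types of the tissue, cardiomyocytes included, also differed between the libraries. The atrial light chains were higher in 12RL, the library highest for XLOC_008068: Myl7, the regulatory chain of the atria, had 118 normalised counts in 12RL and 2.27 to 12.5 in the other libraries, and Myl4, the essential chain, 460 in 12RL and 173 to 184 in the others. Both stayed far below the ventricular Myl2, at 903645 or more per library. In 7LR, the library next highest for XLOC_008068, Myl4 had 174 counts, against 184 in 8R, and Myl7 had 12.5, against 2.27 in 8R. Outside 12RL the counts of Myl7 were very low and rest on few reads. Of the 15 cardiomyocyte, fibroblast, endothelial, smooth muscle, blood and skeletal muscle markers, 14 were matched to a locus, all but Hbb-b1. None of the 14 was at 0 in any library. The signs of XLOC_008068 were shared by 1 of them, the joint locus of Myh6 and Myh7. The 3 fibroblast markers did not share 1 pattern. Col1a1, a collagen, had 21094 (3RL), 13033 (7LR), 16969 (8R) and 9157 (12RL), and Postn, a matrix protein, had 6771, 5450, 7214 and 3842 in that order, so both were lowest in 12RL. Dcn, a matrix proteoglycan, had 51752, 49891, 55985 and 53691, with its lowest value in 7LR and a CV of 4.95%. Acta1, skeletal alpha actin and a skeletal muscle marker, had 37297, 18333, 50459 and 20095 in that order. Ckm, the other skeletal muscle marker, had 162922, 148387, 185539 and 167838, and did not share the low value of Acta1 in 12RL. Hba-a1, a blood marker at a joint locus with Hba-a2, had 25307, 38496, 83406 and 37397. The cardiomyocyte locus of Myh6 and Myh7 had 4389572 to 5309783 counts. Actc1 had 1521800 (3RL), 1177408 (7LR), 1640532 (8R) and 1215872 (12RL), each with the sign opposite to that of XLOC_008068. The joint loci that hold Tnnt2 and Tnni3 had 1085704 to 1357998 and 456486 to 582991, so the defining markers of heart muscle were abundant. The part of cell composition in the spread of XLOC_008068 was not tested.

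The loci with the most similar profile over the 4 libraries were chosen by the smallest root mean square difference of centred log2 values, among the 14423 others whose mean was at least 50. They were Rc3h1 (difference 0.03), Tmtc1 (0.04), Pik3r1 (0.04), XLOC_002503 at chr10:94798830-94837386 (0.04) and 9230114K14Rik (0.04). Rc3h1 encodes Roquin-1, an RNA-binding protein of mRNA decay, and had 5937 normalised counts (3RL), 8234 (7LR), 6047 (8R) and 9296 (12RL). Pik3r1, the p85 alpha regulatory subunit of phosphoinositide 3-kinase, had 25640, 37957, 30055 and 43037 in that order. The median difference from XLOC_008068 over all 14423 loci was 0.34, and 136 loci (0.943%) were within 0.1. At a minimum mean of 1000, Pgm2l1 and Erbb4, the neuregulin receptor kinase, came next after the first 3, with 0.06 each. With 4 libraries such a likeness is a description of these hearts only.

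**Figure D5:**
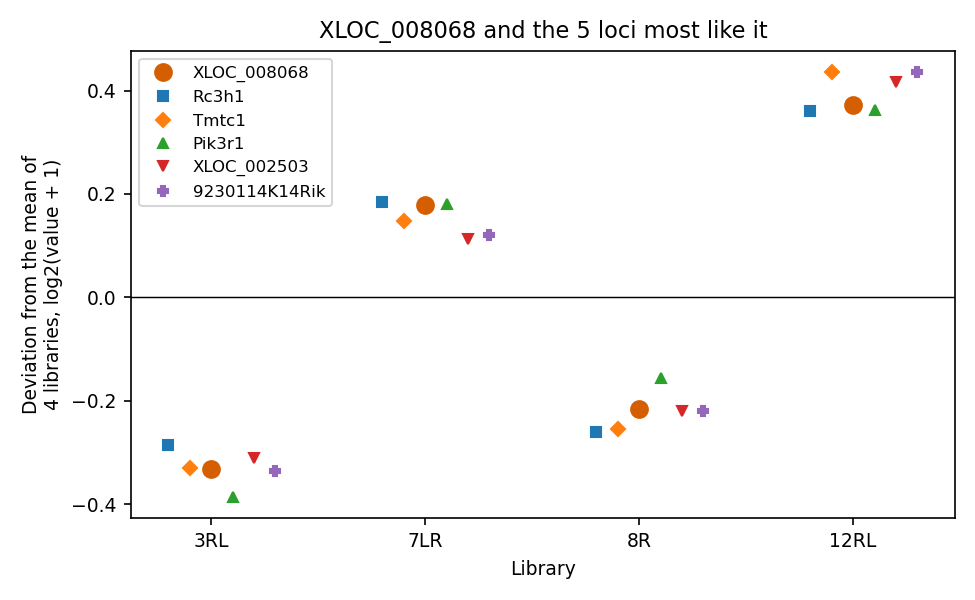
Library deviations from the average over all 4 on the log2(value + 1) scale for XLOC_008068 and for the 5 loci with the most similar profile. All 6 are below 0 in 3RL and 8R and above 0 in 7LR and 12RL, which is what they were chosen for.

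XLOC_008068, which was chosen for its high count, had a higher count than every other locus within 100 kb. Within 100 kb lay 4 other loci, of which Wrnip1, a DNA replication and repair ATPase encoded on the plus strand 21.3 kb away at chr13:32893907-32914478, was the highest. Wrnip1 had 3447 normalised counts (3RL), 3797 (7LR), 4475 (8R) and 3667 (12RL). XLOC_008068 had 15.5, 20.1, 12.96 and 23.8 times these counts, a mean of 18.1 ± 4.81 (SD, n = 4), and per kb of exon 6.87 ± 1.83 times. Wrnip1 was highest in 8R, where XLOC_008068 was low. On the same strand, 61.4 kb away, the joint locus of the serpins Serpinb1a and Serpinb1c, which are protease inhibitors, had 457 counts (3RL), 388 (7LR), 338 (8R) and 372 (12RL). XLOC_008574, a single exon without a strand 31.3 kb beyond the 3′ end, held 11 reads in 3RL and 0 in the other 3 libraries. RefSeq on GRCm38.p6 also lists Wrnip1 and then Serpinb1a as the next genes after Mylk4.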

How the data were processed

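The 4 Sham heart libraries were analysed. The authors deposited normalised read counts per locus, a signal that is the count divided by 1 size factor per library, and transcript models on mm9 for the whole series. TopHat2 2.0.5 and Cufflinks 2.0.2 were used, as were HTSeq 0.5.4p2 and DESeq, per the submitters' processing notes. Not given in the sources used here: settings, strandedness and counting mode. All deposited values were whole multiples of 1 step per library (tolerance 0.001, 100% of values), which gave 108345923 to 160670654 recovered reads per library.

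Levels, CV, log2(value + 1) deviations and likeness were computed with Python 3.11.15, numpy 2.4.6 and pandas 2.3.3, and dispersion and TMM scaling with edgeR 4.0.16. Loci were given symbols where all intron and inner exon lengths of a model with 2 or more introns equalled those of a GENCODE M21 transcript on the same chromosome and strand: 17517 of 35299 loci matched, 16909 of them 1 gene only. No coordinate was converted. The named loci are XLOC_008068, every locus within 100 kb, the 5 most similar loci at a minimum mean of 50 and of 1000, and lists of myosin-related genes and markers. The locus and the lists were chosen with earlier results of these data known. The steps were tested on simulated data. Replicates are biological per the labels, and no p-value is given because there is 1 group.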

Additional observations from a re-analysis of the deposited data

Results flagged for a closer look

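At 5 of the 35 named loci 1 library lay far from the rest. Chance flags about 1 in 20 groups, and 4.6% of the 14424 loci with a mean of 50 or more had such a library. The 35 include loci chosen for a profile like that of XLOC_008068, whose Dixon's ratio was 0.326, so these were unlikely to be flagged. The count of 5 therefore cannot be measured against those shares. Of the 5, Myl7 and XLOC_008574 had means under 50. XLOC_008068 was not among the 5. Myl4 had 460 normalised counts in 12RL, with 173 to 184 in the other libraries. Myl7 had 118 in 12RL, with 2.27 to 12.5 in the others. Pecam1, an endothelial marker, had 27875 in 3RL and 22423 to 22705 in the others. Cdh5, the other endothelial marker, was not flagged, with 45157 (3RL), 36971 (7LR), 33196 (8R) and 31188 (12RL). Myh11, a smooth muscle marker, had 6279 in 8R and 8689 to 8910 in the others. Acta2, the other smooth muscle marker, was not flagged and was not lowest in 8R, with 14552 (3RL), 8691 (7LR), 10101 (8R) and 9432 (12RL). XLOC_008574 had 13.1 normalised counts, which are 11 reads, in 3RL and 0 in the others.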

How the results depend on the processing

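The mean level of XLOC_008068, its rank among spliced loci without a UCSC identifier, its CV and the sign of its deviation in each library held under every alternative run for them. Leaving out each library gave means of 62566 to 73804, CVs of 19.2% to 27.6% and ratios to Wrnip1 of 16.2 to 19.8. The CV was 24.9% with equal table totals, and the SD of log2 values was 0.33. The percentile of the level per kb was 98.1 with no minimum mean, 95.2 at a minimum of 50 and 98.1 with the length of the 12-exon Mylk4 transcript (an upper limit), since each changes the loci or the length compared. The percentile of the spread was 95.1, and it was 91.9 by the SD of log2, 96.6 by edgeR's tagwise dispersion, 95.6 among loci of like mean and length, 98.3 with equal table totals, 96.0 with the median of ratios and 96.4 with TMM; the cause was not tested. Of the 5 most similar loci, 3 were still among the 5 at a minimum mean of 1000, which removes the others, and 4 with equal table totals. The ratio to the highest neighbour was 11.5 within 200 kb, where Serpinb6b takes the place of Wrnip1, and 6.87 per kb. The length of that transcript, the scalings of the spread percentile and the ratios without 1 library were chosen after seeing the data. No paired analysis was possible because a single group was profiled. Depth does not limit XLOC_008068, whose counting error is a CV of 0.428%, but it limits XLOC_008069 and XLOC_008574.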
